A study of Mus musculus with 2 samples.

Results

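The genes described here are 41 members of the Wnt signalling pathway, chosen by name, out of 22367 protein-coding genes of the mouse annotation. They comprise 9 Wnt ligands, 12 receptors, 6 intracellular components, 4 Tcf/Lef transcription factors, 7 secreted inhibitors and 3 R-spondins. A p300 peak was assigned to a gene when its midpoint fell inside the gene body or within 250 kb of the transcription start site. By this rule 69 of the 6629 peaks in the list (1.04%) were assigned, and none was assigned to more than 1 of the 41 genes.

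p300 was mapped by chromatin immunoprecipitation and sequencing (ChIP-seq) in the dorsal cerebral wall of Swiss Webster mouse embryos at E14.5, embryonic day 14.5. The sample was the wall of the future neocortex, freed of its coverings and without the medial tissue that includes the hem, the hippocampus and the choroid plexus. There was 1 library made with the C-20 anti-p300 antibody and 1 input library, with no genetic change, no drug and no replicate. The input library was not analysed here, and the peak list gives only positions, so the number of reads behind a peak is unknown. With a single library each p-value below compares the peaks with an even spread over the genome, and not samples with one another.

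p300 is a histone acetyltransferase that transcription factors bring to active enhancers, and its ChIP-seq peaks away from promoters are used as a map of candidate enhancers. In canonical Wnt signalling a secreted Wnt ligand binds a Frizzled receptor together with Lrp5 or Lrp6, which stops a destruction complex built around Apc, axin and Gsk3b from marking β-catenin (Ctnnb1) for breakdown. β-catenin then enters the nucleus and joins Tcf/Lef factors on DNA, where it can recruit p300 and its relative CBP. Dkk, Sfrp and Wif1 proteins block the signal outside the cell, while R-spondins strengthen it. In the embryonic cortex Wnt signals from the cortical hem pattern the medial wall and the hippocampus, and β-catenin keeps cortical progenitors dividing.

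The sequences below are examples from the peaks of the 6 genes with the smallest p in the count of peaks. For each gene the peak closest to the start site that held the Tcf/Lef word CTTTGAT is shown, as 120 bases around the word. Capitals mark that word, which appears as ATCAAAG where it lies on the other strand. None of the 7 Wnt7b peaks held the word, so the middle of the peak nearest the Wnt7b start site is shown, without capitals. All are read 5′ to 3′ on the plus strand of the mm9 assembly (NCBIM37). The Wnt7b stretch is chr15:85441132-85441251, between genes and 28.9 kb upstream. The Tcf7l2 stretch is chr19:55652777-55652896, in an intron of Vti1a and 163.5 kb upstream of the Tcf7l2 start site. The Ctnnb1 stretch is chr9:120603782-120603901, between genes and 238.8 kb upstream. The Fzd1 stretch is chr5:4878549-4878668, in an intron of Cdk14 at the edge of a peak 119.5 kb upstream of Fzd1. The Nkd1 stretch is chr8:91103094-91103213 and the Wif1 stretch chr10:120478033-120478152, each in an intron of the gene itself.
Wnt7b: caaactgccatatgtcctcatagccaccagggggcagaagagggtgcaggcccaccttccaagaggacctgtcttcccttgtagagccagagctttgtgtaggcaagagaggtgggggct
Tcf7l2: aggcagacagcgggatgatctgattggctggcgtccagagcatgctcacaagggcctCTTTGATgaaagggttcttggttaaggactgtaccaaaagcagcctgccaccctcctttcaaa
Ctnnb1: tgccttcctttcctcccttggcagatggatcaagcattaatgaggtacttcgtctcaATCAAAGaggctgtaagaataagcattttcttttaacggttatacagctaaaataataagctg
Fzd1: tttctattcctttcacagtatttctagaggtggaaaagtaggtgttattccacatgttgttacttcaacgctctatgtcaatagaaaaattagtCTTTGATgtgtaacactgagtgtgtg
Nkd1: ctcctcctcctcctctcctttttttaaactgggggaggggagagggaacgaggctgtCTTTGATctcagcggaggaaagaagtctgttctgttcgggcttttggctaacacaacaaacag
Wif1: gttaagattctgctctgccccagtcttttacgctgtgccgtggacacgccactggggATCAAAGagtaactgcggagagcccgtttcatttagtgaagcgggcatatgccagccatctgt
A match to the word describes the sequence and does not show that a Tcf/Lef factor binds there. The stretches with capitals were chosen for the word and are not typical. Searched over their whole length, 14.5% of the Wnt peaks and 17.6% of the other peaks held it.

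Most of the 41 Wnt pathway genes had a p300 peak in their window, but few had many. At least 1 peak was found for 30 of them (73.2%), against 48.7% of all protein-coding genes. The median was 1 peak against 0, and the nearest peak lay at a median of 139 kb from the start site against 262 kb. Peaks spread evenly over the genome would leave 27.4% of 500 kb windows empty, near the 26.8% of Wnt genes with no peak. The share of Wnt genes with a peak was thus near that of even placement. At the upper end the Wnt genes and all coding genes were closer, with 3 or more peaks at 8 of 41 genes (19.5%) against 15.0%. The plot of genes by number of peaks shows this as fewer genes at 0 and more at 1 and 2. The Wnt genes had a median of 4 other coding start sites in the window where the median coding gene had 8, and the part of this difference in gene density in the peak counts was not tested.

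**Figure D1:**
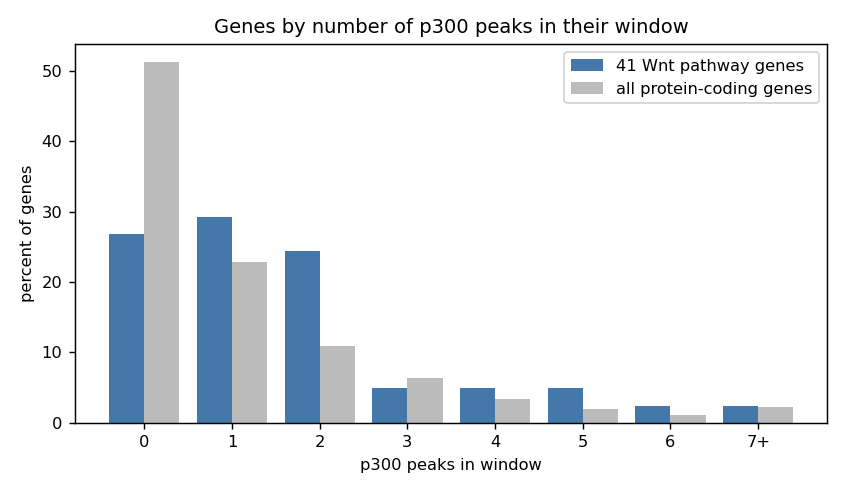
Percent of genes (vertical axis) by number of p300 peaks in the window of 250 kb to either side of the start site plus the gene body (horizontal axis), for the 41 Wnt pathway genes (blue) and all 22367 protein-coding genes (grey). No peak was found at 26.8% of the Wnt genes and 51.3% of the coding genes, and 2 peaks were found at 24.4% and 10.9%.

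Over the whole genome the list held 2.59 peaks per Mb, so a window of 500 kb would hold 1.30 peaks if peaks were spread evenly over the assembled bases. The 41 windows together covered 20.44 Mb and held 69 peaks where 53.0 were expected, a fold of 1.30 (95% Poisson interval 1.01 to 1.65). The windows of all coding genes together had a fold of 1.05 over even placement. The intervals given for folds cover counting error only, and peaks lie in clusters, so they are too narrow. Without Wnt7b the fold of the other genes was 1.20. Each gene was also tested alone, with a one-sided exact binomial test adjusted by the Benjamini-Hochberg method over all coding genes. The test likewise takes peaks as placed independently, so with clustered peaks its p-values are too small. Only 1 of the 41 Wnt genes (2.44%), Wnt7b, passed at an adjusted p below 0.05, beside 466 of all coding genes (2.08%), so the share of called genes was near the background. At an unadjusted p below 0.05 stood 6 of 41 (14.6%), against 8.33% of coding genes.

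**Figure D2:**
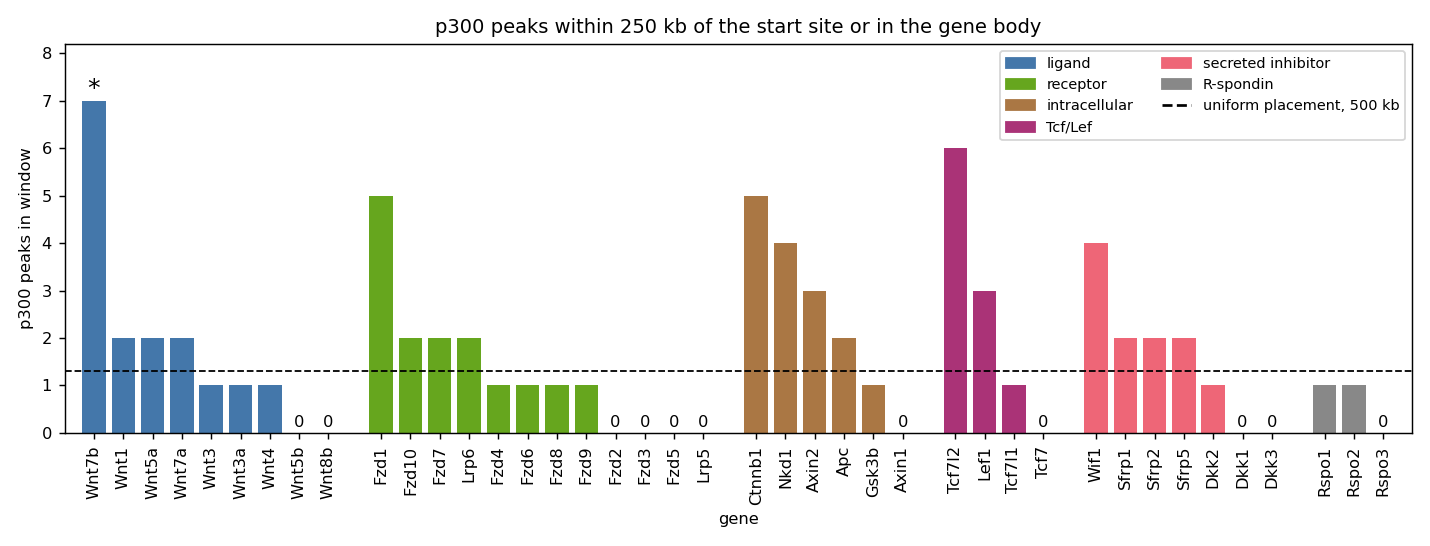
Number of p300 peaks (vertical axis) in the window of each of the 41 Wnt pathway genes (horizontal axis), grouped and coloured by role. The dashed line marks the 1.30 peaks of even placement in 500 kb, the asterisk the gene that passed the binomial test, Wnt7b with 7 peaks, and a 0 marks the 11 genes with no peak.

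Among the ligands, Wnt7b stood far above the rest. It held 7 peaks against 1.30 expected, a fold of 5.40 (95% Poisson interval 2.17 to 11.1; exact binomial test, p = 3.95e-04, adjusted p = 0.0193). Wnt7b, at chr15:85365869-85412251, encodes a ligand made in the cortical wall itself. Of its peaks, 5 were upstream of the start site, at 28.9, 32.0, 44.3, 71.4 and 120.8 kb, all between genes. The other 2 were downstream, at 87.3 kb between genes and at 178.4 kb in an intron of Atxn10. The Wnt7b start was the nearest coding start for the 4 upstream peaks closest to it, while the one at 120.8 kb was nearer to Ppara. These peaks were rich in G and C, with 6 of the 7 between 53.4% and 65.0% GC, and only the one in Atxn10, at 42.8%, was below the median of 45.1% for peaks outside the Wnt windows. 2 of them, at 28.9 and 32.0 kb, lie under 5 kb apart, and when such neighbours were joined into 1 the fold was 5.03 and the call was lost (exact binomial test, adjusted p = 0.0785).

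The other ligand genes held between 0 and 2 peaks. Wnt5a, a ligand best known for β-catenin-independent signalling, had a peak 9.6 kb downstream of its start, in its own intron, and another at 117.6 kb between genes, and no other coding start lay in its window. Wnt7a, the closest relative of Wnt7b, had 2 peaks, 51.5 kb downstream and 205.7 kb upstream. Both peaks of Wnt1, at 179.3 and 203.8 kb, were nearer to other genes, the first of them to the tubulin gene Tuba1a. The single Wnt3a peak, 12.2 kb upstream, lay 4.0 kb from the start of the neighbouring ligand gene Wnt9a. Wnt3 and Wnt4 had 1 peak each, nearest to Gosr2 and Zbtb40. Wnt5b and Wnt8b had none, and their closest peaks were 1035.8 and 387.4 kb away. All 9 ligand windows together held 16 peaks, a fold of 1.37 (0.784 to 2.23), and without Wnt7b 9 peaks, a fold of 0.868.

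The receptors were the role with a fold closest to even placement. Their 12 windows held 15 peaks, a fold of 0.974 (0.545 to 1.61), and no receptor gene had a peak within 50 kb of its start. Fzd1 alone held 5 of them, a fold of 3.86 that did not pass (exact binomial test, p = 0.0105, adjusted p = 0.209). Of these, 4 lay 56.5, 93.4, 100.2 and 119.5 kb upstream in introns of the cyclin-dependent kinase gene Cdk14, and the remaining one 231.7 kb downstream between genes. Fzd1 was nonetheless the nearest coding start for all 5, and no other coding start lay in the window. When peaks narrower than the median were left out, Fzd1 passed, with a fold of 7.70 (exact binomial test, adjusted p = 0.0372).

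Lrp6, the co-receptor, was the one receptor gene with peaks in its own body, a pair in its introns at 65.9 and 71.9 kb from the start. Fzd7 had 2 peaks, 87.3 kb upstream and 53.5 kb downstream, the latter in an intron of Gm973. The 2 peaks of Fzd10 lay at 160.8 and 182.7 kb, both nearer to Tmem132d. Fzd4, Fzd6, Fzd8 and Fzd9 had 1 peak each, at distances from 59.8 kb for Fzd4 to 238.0 kb for Fzd9. No peak was found for Fzd2, Fzd3, Fzd5 or Lrp5, whose nearest peaks were 291.7 kb (Fzd5) to 916.7 kb (Fzd3) away. Lrp6 and Lrp5 thus had 2 peaks and 0, a difference that counts this small cannot resolve, since even placement leaves 27.4% of 500 kb windows empty.

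Intracellular components had 15 peaks in 6 windows, a fold of 1.93 (1.08 to 3.18), and a fold of 1.54 without Ctnnb1. Ctnnb1, the gene of β-catenin, held 5 peaks, a fold of 3.86 (exact binomial test, p = 0.0105, adjusted p = 0.209). They lay 63.8, 173.4 and 238.8 kb upstream between genes, and 133.8 and 174.5 kb downstream within Ulk4, the last with its midpoint in an annotated exon. No other coding start was in this window, and the Ctnnb1 start was the nearest for 3 of the 5 peaks. The peak at 238.8 kb was nearer to the start of 5830454E08Rik and the one at 174.5 kb to that of Ulk4, both outside the window. The count grew with distance, since 12 further peaks lay between 250 and 500 kb from the Ctnnb1 start, 7 of them in introns of Trak1 and 3 in introns of Myrip. With windows of 500 kb to either side Ctnnb1 therefore passed, with 17 peaks and a fold of 6.56 (exact binomial test, adjusted p = 7.62e-07), although these outer peaks were nearest to the starts of other genes.

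Axin2 and Nkd1, the feedback inhibitors among these components, each had peaks in their own introns. Axin2, a widely used target of Wnt signalling whose product rebuilds the destruction complex, had the peak closest to any of the 41 start sites, 5.0 kb downstream in its own intron. Its other 2 peaks lay at 38.2 and 112.5 kb, also downstream. Nkd1, which binds Dishevelled and dampens the signal, held 4 peaks, a fold of 3.09 (exact binomial test, p = 0.0426, adjusted p = 0.515). A pair of these sat in Nkd1 introns at 51.3 and 57.1 kb, with further peaks 78.4 kb downstream and 144.0 kb upstream. Among the constitutive parts of the destruction complex, Apc had 2 peaks, Gsk3b 1 and Axin1 none. Counts this small cannot resolve differences between such genes. In the regulatory domains described below for Tcf7l2, the fold of Apc was 2.46, above the 1.61 of Axin2 and below the 5.76 of Nkd1. Gsk3b and Axin1 had domain folds of 1.03 and 0. Axin1 had 15 other coding starts in its window and Axin2 had 1.

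Tcf/Lef genes held 10 peaks in 4 windows, a fold of 1.93 (0.925 to 3.55), of which Tcf7l2 gave 6. Tcf7l2, at chr19:55816300-56008144, encodes a Tcf factor that acts as activator or repressor depending on β-catenin. Its fold of 4.63 did not pass the test (exact binomial test, p = 0.00219, adjusted p = 0.0697), and without it the fold of the other Tcf/Lef windows was 1.03. The Tcf7l2 peaks formed an upstream and a downstream set, with 185.4 and 163.5 kb upstream in introns of Vti1a, 139.0 and 183.8 kb downstream in Tcf7l2 introns, and 199.4 and 209.9 kb downstream beyond the gene. The Tcf7l2 start was the nearest coding start for all 6, and none lay within 100 kb of it.

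Tcf7l2 did pass when each gene was given a regulatory domain, which runs from 5 kb upstream to 1 kb downstream of the start and extends by up to 1 Mb to the next coding gene's basal domain. Its domain of 0.961 Mb held 12 peaks, a fold of 4.82 (exact binomial test, adjusted p = 0.00236). The domain of Wnt7b was short, at 0.219 Mb, and held 5 peaks, a fold of 8.81 (exact binomial test, adjusted p = 0.0312). These were the 2 of 41 Wnt genes (4.88%) called by domains, beside 1.14% of coding genes. Lef1, a factor needed for hippocampal development, had 3 peaks, 147.6 and 163.1 kb upstream between genes and 44.3 kb downstream in its own intron. Tcf7l1, which acts mainly as a repressor, had 1 peak, 121.6 kb into its own body. Tcf7, known from T cells, had none, with the nearest at 352.7 kb.

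**Figure D3:**
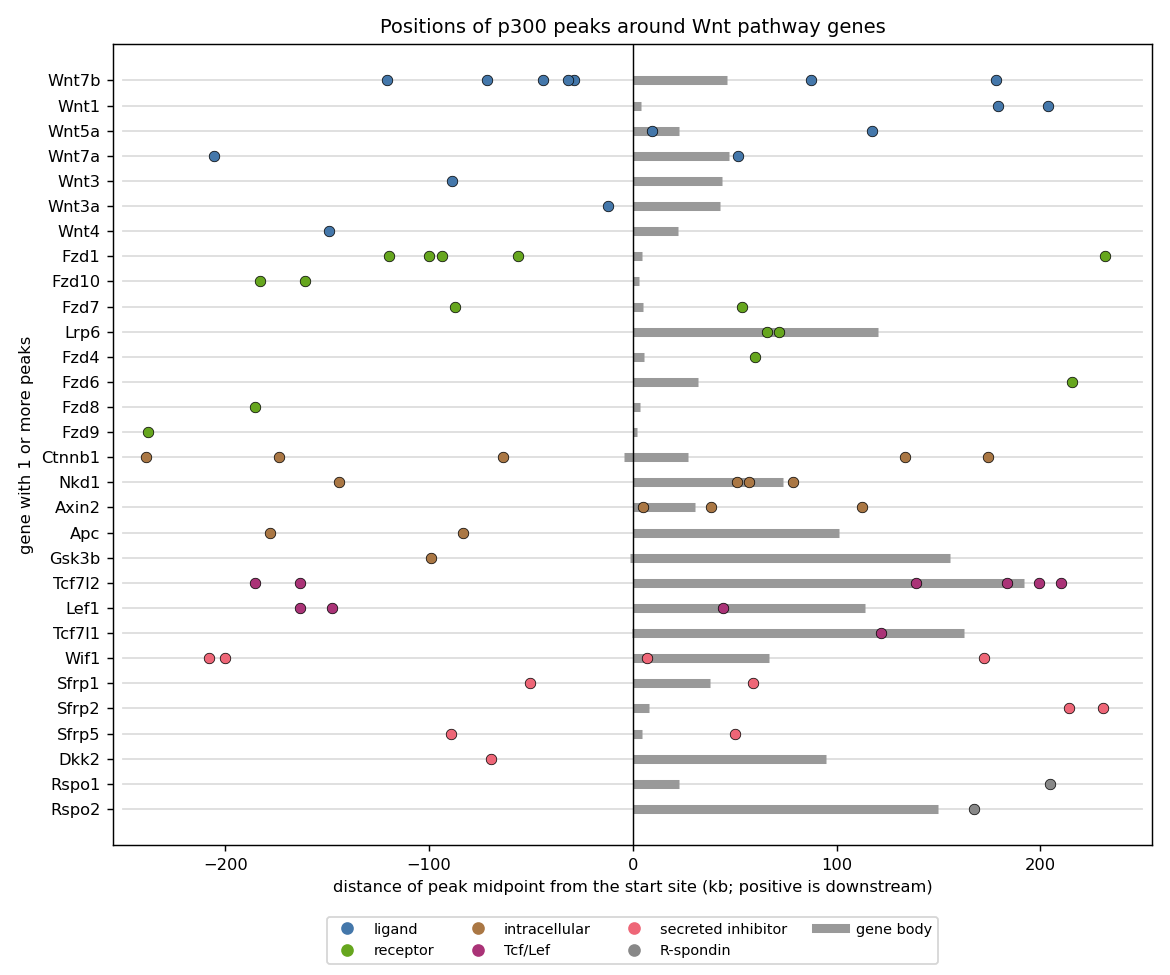
Distance of each p300 peak midpoint from the start site in kb (horizontal axis, positive is downstream) for the 30 Wnt pathway genes with a peak (vertical axis), with points coloured by role and gene bodies as grey bars. Wnt7b peaks gather upstream, Fzd1 has 4 of 5 upstream, and the 6 Tcf7l2 peaks leave the 100 kb around its start empty.

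Of the secreted inhibitors, Wif1 had the most peaks and Dkk genes the fewest. Wif1, which binds Wnt proteins directly, held 4 peaks, a fold of 3.09 (exact binomial test, p = 0.0426, adjusted p = 0.515). One lay 7.2 kb downstream of the start in a Wif1 intron, a pair 199.9 and 208.2 kb upstream in introns of Msrb3, and one lay 172.3 kb downstream. Only the peak at 7.2 kb had Wif1 as its nearest coding start. Sfrp1, a Frizzled-related decoy, had peaks 50.6 kb upstream and 59.0 kb downstream, both nearest to Sfrp1 itself. Both Sfrp2 peaks, at 214.2 and 230.7 kb, lay in introns of D930015E06Rik. Sfrp5 had 2 peaks, the farther at 89.1 kb, each nearer to another gene. Dkk2 had 1 peak, 69.7 kb upstream. Dkk1, whose product binds Lrp5 and Lrp6, had none, nor had Dkk3, and the nearest peak to Dkk3, at 262.5 kb, lay just outside its window. The 7 windows together held 11 peaks, a fold of 1.21 (0.606 to 2.17).

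The R-spondin windows had the lowest count. They held 2 peaks where 3.89 were expected, a fold of 0.515 (0.0623 to 1.86), with 1 peak for Rspo1 at 204.8 kb and 1 for Rspo2 at 167.2 kb. Rspo3 had none, and its nearest peak, 1375.9 kb away, was the most distant of all 41 genes. The R-spondin fold was not the lowest in windows of 500 kb, at 1.29 against 0.937 for receptors. The intervals of all 6 roles overlapped, as the plot of fold by role shows, and the differences between roles were not tested.

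**Figure D4:**
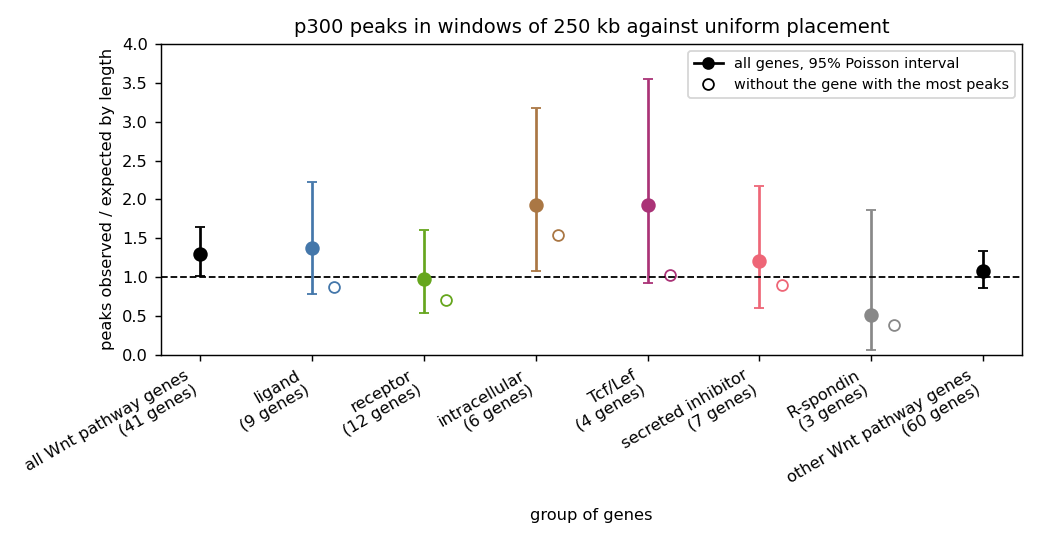
Observed over expected p300 peaks (vertical axis, linear scale from 0) in the windows of the 41 Wnt pathway genes, of each role and of 60 other Wnt pathway genes (horizontal axis), with 95% Poisson intervals and, as open circles, the value without the gene with the most peaks. Filled points run from 0.515 for R-spondins to 1.93 for intracellular and Tcf/Lef genes, and the ligands change from 1.37 to 0.868 without Wnt7b.

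The peaks lay evenly on both sides of the Wnt start sites and mostly far from them. Of the 69 peaks 34 were upstream and 35 downstream, at a median distance of 119 kb. Only 9 were within 50 kb, another 22 between 50 and 100 kb, and 38 beyond 100 kb. A Wnt gene was the nearest coding start for 38 peaks (55.1%), which belonged to 17 genes, and the other peaks were closer to a neighbour. Between genes lay 38 (55.1%), against 57.1% of all peaks. In introns lay 30 (43.5%, against 42.3% of all peaks), 11 of them in introns of the Wnt gene and 19 in those of another coding gene. The authors had removed peaks at exons and close to start sites, so the list says nothing about p300 at the Wnt promoters themselves.

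Peaks within the gene body were more frequent than among coding genes at large. They occurred in 8 of 41 Wnt genes (19.5%), namely Wnt5a, Lrp6, Axin2, Nkd1, Tcf7l1, Tcf7l2, Lef1 and Wif1, against 6.57% of all coding genes. The Wnt genes were also longer, with a median of 38.1 kb against 15.4 kb, and the part of length in this share was not tested. By role, 3 of the 4 Tcf/Lef genes and 2 of the 6 intracellular genes had such a peak, but 1 of 12 receptors and 1 of 9 ligands. Start sites within 50 kb of a peak were about as common as elsewhere, at 6 of 41 (14.6%) against 12.8%. These were Wnt3a, Wnt5a, Wnt7b, Axin2, Lef1 and Wif1.

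In size the peaks near Wnt genes resembled the rest, with a median width of 1030 bp against 1020 bp. Their GC content had a median of 48.5% against 45.1% for the other 6560 peaks. Short words bound by cortical transcription factors were then counted on both strands in the middle 500 bp of each peak, and shares are given with exact Clopper-Pearson 95% intervals, as a description without a test. TAATTA reads the same on both strands, and occurrences of TTGGCA and GTTGCCA can share bases. The Tcf/Lef word CTTTGAT was in 6 of the 69 peaks (8.70%, 3.26 to 18) and in 8.22% of the other peaks. Those 6 peaks belonged to Wnt1, Ctnnb1, Tcf7l2, Lef1, Dkk2 and Wif1, a gene each. The sign of this small difference turned in the middle 200 bp (1.45% against 3.08%), in whole peaks (14.5% against 17.6%) and within 100 kb (5.88% against 8.23%).

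Of the other words, CATCTG, an E-box bound by Neurod and Neurog proteins, was the most frequent at Wnt genes as elsewhere, in 62.3% of the peaks (49.8 to 73.7) against 57.3%. It was in 13 of the 15 intracellular peaks, including all 3 of Axin2 and all 4 of Nkd1. It was also in 11 of 16 ligand and 2 of 2 R-spondin peaks. Receptors had it in 7 of 15 peaks, Tcf/Lef genes in 5 of 10 and secreted inhibitors in 5 of 11. The Sox word AACAAT was in 14.5% (7.17 to 25) against 27.1%, and in none of the 15 intracellular and 10 Tcf/Lef peaks. The other roles had it in 4 of 15 receptor, 3 of 11 secreted inhibitor, 2 of 16 ligand and 1 of 2 R-spondin peaks. TAATTA, bound by Lhx factors, was in 26.1% (16.3 to 38.1) against 31.3%. It was in 6 of the 10 Tcf/Lef peaks, most of them at the single gene Tcf7l2, and in none of the 15 intracellular ones. Receptors had it in 6 of 15 peaks, ligands in 3 of 16, secreted inhibitors in 3 of 11 and R-spondins in 0 of 2. TTGGCA, part of the Nfi site, was in 34.8% (23.7 to 47.2) against 42.4%, and GTTGCCA, part of the Rfx site, in 13.0% (6.14 to 23.3) against 9.63%. In the plot of word shares the value of the other peaks lies outside the interval for the Sox word only, which depended on the stretch searched. The Sox value of the other peaks fell inside the interval in the middle 200 bp (5.80%, 1.60 to 14.2, against 11.7%) and in whole peaks (37.7%, 26.3 to 50.2, against 48.5%), and outside it within 100 kb (5.88%, 0.720 to 19.7, against 27.1%). In whole peaks the Lhx value lay outside instead (31.9%, 21.2 to 44.2, against 46.8%). The Wnt and other peaks differ in GC content, and its part in these shares was not tested.

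**Figure D5:**
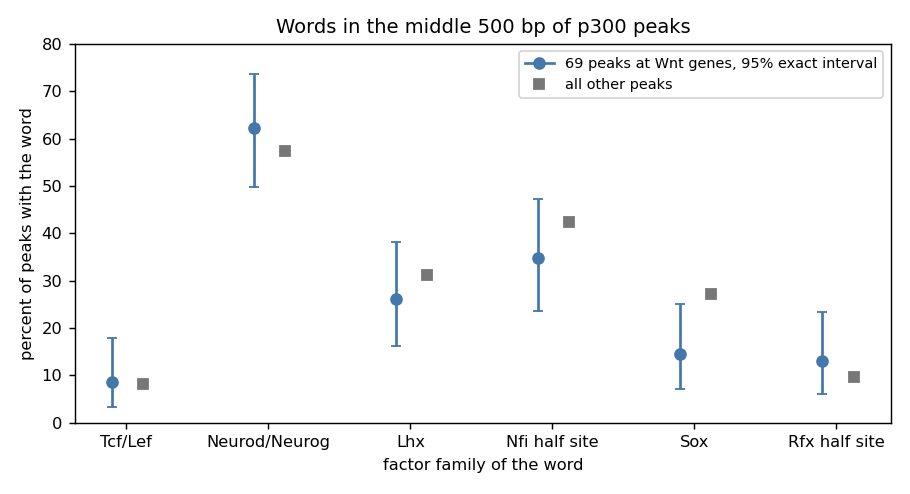
Percent of p300 peaks with a word in the middle 500 bp (vertical axis) for 6 factor families (horizontal axis), for the 69 peaks at Wnt genes with exact 95% intervals (blue) and the other 6560 peaks (grey squares). Neurod/Neurog is highest in both sets, at 62.3% and 57.3%, and for Sox the values are 14.5% and 27.1%.

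A second list held 60 further genes of the pathway, among them the remaining Wnt genes, Dvl, Lgr, Ror and planar polarity genes. At least 1 peak was found for 39 of them (65.0%), against 48.7% of coding genes. The other 21 of the 60 had none, a larger share than the 27.4% of 500 kb windows that even placement leaves empty. None of the 60 genes passed the adjusted exact binomial test in these windows. An unadjusted p below 0.05 was found for 5, which at 8.33% is the share among all coding genes. With regulatory domains Celsr2, a planar polarity gene, passed with 3 peaks (exact binomial test, adjusted p = 0.0480), where 1.14% of coding genes passed. Highest were Cer1, which encodes a secreted antagonist, and Apcdd1, a membrane inhibitor of Wnt signalling, with 6 peaks each (exact binomial test, adjusted p = 0.0697). In their regulatory domains Cer1 held only 2 peaks and Apcdd1 4, and neither passed. The windows of the 60 genes together held 81 peaks, 4 of them shared with the 41 genes, and a fold of 1.08 (0.857 to 1.34).

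For scale, the same count was made for genes that mark tissues. All 10 dorsal telencephalon genes had peaks, between 2 and 11 with a median of 5, and 4 passed the test, namely Emx1, Pax6, Neurod2 and Neurod6. Wnt7b with 7 peaks matched Pax6, while 33 of the 41 Wnt genes had 2 or fewer. Coding genes at large were similar, with 3 or more peaks at 15.0% of them and at 19.5% of the Wnt genes. Of the tissues cut away or absent, 2 of 4 choroid plexus and hem genes, 1 of 5 mesenchyme and skin genes and 0 of 3 blood and liver genes had a peak, and 3 of 5 subpallial genes had between 2 and 3. Among all coding genes 48.7% had a peak and 2.08% passed the test, so the choroid plexus, hem and subpallial genes were not below that share.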

How the data were processed

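Chromatin of 1 tissue sample gave 1 p300 library and 1 input library, both named as such in the labels. The authors called peaks on mm9 against the input with MACS 1.4 (submitters' processing notes) and then kept only peaks off exons and more than 2.5 kb from any start site, after a filter for unreliable mapping. The deposited list gives start and end coordinates only, with no score or count, so depth and precision per peak are unknown.

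Peaks were placed on NCBIM37 with GENCODE vM1, taking as start site that of the longest coding transcript. Expected numbers are proportional to assembled bases. A one-sided exact binomial test was run on each of 22367 coding genes and adjusted by the Benjamini-Hochberg method. Scripts used Python 3.11.15, numpy 2.4.6, scipy 1.17.1 and matplotlib 3.10.9 and were tested on simulated peaks. The 41 genes, their roles, the 60 further genes and the words were chosen with earlier results of these data known. The rule for named genes covered those called, the highest and lowest of each role and those with a peak in the body, and the remaining members were named after their values were seen, to account for all 41. Sequences were taken for the 6 genes with the smallest p. Alternatives changed the window, expectation, peaks, start sites and adjustment.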

Additional observations from a re-analysis of the deposited data

How the results depend on the processing

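The number of the 41 Wnt genes called was 1 in windows of 100 kb, without the gene body, with the expectation limited to bases outside exons and start sites, with the most upstream start sites and with p adjusted over all annotated genes, and each time the gene was Wnt7b, while the share of all coding genes called ran from 0.881% (windows of 100 kb) to 3.01% (bases outside exons and start sites). It was 3 with windows of 500 kb (Wnt7b, Ctnnb1 and Tcf7l2, beside 4.09% of coding genes), 2 with the expectation of the same chromosome (Wnt7b and Tcf7l2, the latter with adjusted p = 0.0492 in the exact binomial test, beside 2.06%), 2 with wide peaks only (Wnt7b and Fzd1, beside 1.52%), 2 with regulatory domains (Wnt7b and Tcf7l2, beside 1.14%) and 0 with peaks under 5 kb apart joined (beside 1.14%), where Wnt7b had an adjusted p of 0.0785. Of the 60 further genes 2 were called with windows of 500 kb, Cer1 and Celsr1, beside 4.09% of coding genes, and neither passed with regulatory domains. With domains 1 of the 60 was called, Celsr2, beside 1.14% of coding genes. Both counts were near the share of all coding genes. With regulatory domains the fold was 1.68 for the 41 genes, 1.80 for receptors and 0.535 for secreted inhibitors. The R-spondin fold was 0 with windows of 100 kb and with wide peaks, but 1.29 with windows of 500 kb, which held 10 peaks. The cause of these shifts was not tested. Single genes with few peaks also moved, and Wnt1, Sfrp2 and Fzd10, with 2 peaks each, had 0 in windows of 100 kb. Leaving out the gene with the most peaks was added after the data were seen. No paired analysis was possible because there is 1 p300 library. The number of peaks limits the result for a single gene, since 3 peaks in a window of 500 kb amount to a fold of 2.32.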
